A study of Mus musculus with 6 samples.

Results

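The genes described here are those whose platform symbol is Cd followed directly by a digit, together with the leukocyte markers Ptprc, Mpeg1, Adgre1, Lyz1 and Lyz2. They were found by symbol in the platform annotation, with no use of measured values. The rule found 85 probes of 81 genes among 13409 named genes: 78 genes with a Cd symbol, and Ptprc, Mpeg1 and Adgre1. Lyz1 and Lyz2 had no named probe. Of the 81 genes 75 had values on enough arrays to be tested, out of 12698 genes tested in all.

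The study compared epididymal fat pads of 12-week-old C57BL/6J males injected with 1 mg per kg body weight of CL-316,243 and taken 3 hr later, with that of mice given saline. CL-316,243 is an agonist of the beta3-adrenergic receptor, the receptor through which sympathetic nerves start lipolysis in fat cells; one label writes the compound as CL316,246. RNA of 6 mice was pooled for each treatment, and the 2 pools were hybridised together on 6 two-colour spotted arrays. The CL-316,243 pool lay in channel 2 on arrays 4, 5 and 6 and in channel 1 on arrays 1, 2 and 3. The arrays repeat 1 pool per treatment, so every p-value, SE and 95% interval rests on the spread between arrays and compares 2 pools. The spread between mice is unknown.

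Cd numbers are given to surface molecules of leukocytes and other cells as antibodies to them are defined, so the numbering joins proteins of unrelated function. Among them are pattern receptors of macrophages, the receptor complexes of T and B lymphocytes, costimulatory ligands of antigen-presenting cells, tetraspanins that organise membrane proteins, and regulators of complement found on most cells. White fat holds resident macrophages and smaller numbers of lymphocytes between the fat cells, besides endothelial and stromal cells that carry Cd antigens of their own. Fat macrophages are known to change in number and state when lipolysis is stimulated. In whole tissue, fewer cells of a type and less RNA per cell cannot be told apart.

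The deposited values are log ratios of the 2 pools, taken here as log2. The sources used here do not give the pool in the numerator, so a ratio is called positive or negative; if the saline pool was the numerator, every direction turns. For orientation, Il6, a cytokine known to be induced in fat by beta-adrenergic stimulation, had ratios of 2.250, 1.885 and 1.018 on arrays 4, 5 and 6 and of 2.461 and 1.159 on arrays 1 and 3. All 5 values were positive, and the gene passed the test (limma log2 ratio 1.764 ± 0.229 SE, adjusted p 0.00595).

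Columns of the table had closed up after lost spots, so each array was first placed on probe numbers, as described under the processing. Between 64.8% (array 2) and 99.8% (array 6) of probes were placed. Of the 85 member probes 74, 85 and 85 were placed on arrays 4, 5 and 6, and 81, 44 and 78 on arrays 1, 2 and 3. After placement the rank correlation of 2 arrays averaged 0.283 (0.088 to 0.421) within an orientation and 0.110 (-0.010 to 0.176) across orientations, so the ratios of single genes are noisy. The orientations pointed the same way for 76 of the 77 genes whose mean reached 1 in size in both. Since the placement scored agreement between arrays, it favours these correlations and this count, and neither is an independent check. Transcripts of the male reproductive tract, a tissue beside the epididymal fat, differed between the pools: 5 of 6 tested passed with negative ratios, down to -5.473 (Svs5), and 3 to 5 passed under the alternatives that place the columns. The part that unequal dissection has in the members' ratios was not tested.

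No member passed the test. At a Benjamini-Hochberg adjusted p under 0.05 from limma, 0 of 75 were called, against 401 of all genes tested (3.16%, with 1.91% positive and 1.25% negative). The smallest adjusted p among the members was 0.0634. An unadjusted p under 0.05 was found for 20 members (26.67%), 9 with positive and 11 with negative ratios, against 18.6% of all genes. The median log2 ratio of the members was -0.017, beside -0.012 for all genes tested. Member ratios lay between -0.595 and 0.629, and 5 (6.67%) were 0.5 or more in size, beside 6.5% of all genes. The 95% interval lay within 1 log2 unit on either side of 0 for 74 of the 75 (98.7%), with Cd83 the exception, beside 95.9% of all genes. These intervals hold no spread between mice.

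**Figure D1:**
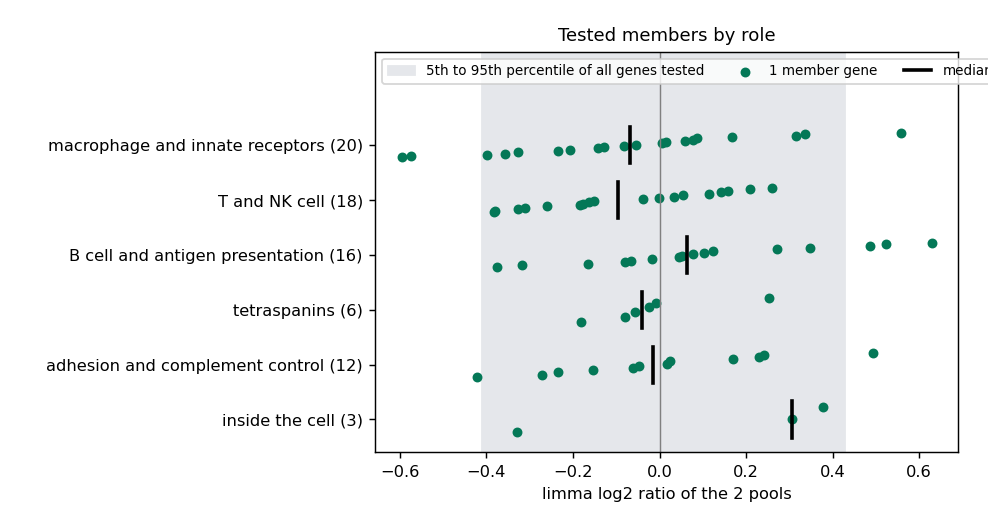
Limma log2 ratios of the 75 tested members by role (x axis, log2 units; 1 point per gene, heights within a row spread for visibility, number of genes in brackets), with each role's median as a bar and the 5th to 95th percentile of all genes tested (-0.409 to 0.428) shaded. Most members of every role lie in the shaded range, and the points beyond it lie on both sides.

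The promoters of the members were searched for short motifs, since those of leukocyte genes are known for sites of PU.1, the Ets factor of macrophages and B cells, and since the beta3-adrenergic receptor acts through cyclic AMP and the factor CREB. RefSeq promoters (250 bases before to 50 after the start, GRCm38.p6) were matched for 57 of the 81 members. The PU.1 core GAGGAA, on either strand, was in 28 of the 57 (49.12%), beside 28.31% of 27025 promoters of all genes and 27.46% of the 17492 of protein-coding genes. The CREB core TGACG, on either strand, was in 12 (21.05%), beside 21.02% of all and 23.85% of protein-coding promoters. The full site TGACGTCA, which contains that core, and the consensus NF-kappaB site were in 0 of the 57, beside 1.88% and 0.14% of all. A match is a description of the letters in this window and no site of binding, and the shares were not tested.

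Promoters are printed for Cd302 and Mpeg1, at the negative end of the members, for Cd55 at the positive end, and for Cd68, the usual macrophage marker, which holds both kinds of match. The first 3 were chosen after their values were seen. Capitals mark GAGGAA or its complement TTCCTC, and TGACG or its complement CGTCA.
Cd302, chr2:60284435-60284734, minus strand: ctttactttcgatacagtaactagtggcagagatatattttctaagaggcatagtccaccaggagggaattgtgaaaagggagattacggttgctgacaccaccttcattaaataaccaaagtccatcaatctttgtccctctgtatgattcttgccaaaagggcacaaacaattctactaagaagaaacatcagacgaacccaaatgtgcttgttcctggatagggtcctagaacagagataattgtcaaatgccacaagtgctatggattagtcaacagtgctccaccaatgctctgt
Mpeg1, chr19:12460520-12460819, plus strand: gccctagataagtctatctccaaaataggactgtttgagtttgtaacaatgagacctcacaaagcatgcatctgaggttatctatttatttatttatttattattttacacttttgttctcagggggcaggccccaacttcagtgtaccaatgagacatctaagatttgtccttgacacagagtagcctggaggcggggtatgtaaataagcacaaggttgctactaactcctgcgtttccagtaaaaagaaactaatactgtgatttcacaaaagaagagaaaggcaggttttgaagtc
Cd55, chr1:130462695-130462994, minus strand: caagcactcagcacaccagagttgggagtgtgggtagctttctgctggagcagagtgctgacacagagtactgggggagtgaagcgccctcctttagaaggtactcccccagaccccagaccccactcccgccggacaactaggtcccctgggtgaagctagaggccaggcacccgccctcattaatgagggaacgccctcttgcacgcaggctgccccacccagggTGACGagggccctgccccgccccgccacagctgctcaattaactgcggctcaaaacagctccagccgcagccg
Cd68, chr11:69666121-69666420, minus strand: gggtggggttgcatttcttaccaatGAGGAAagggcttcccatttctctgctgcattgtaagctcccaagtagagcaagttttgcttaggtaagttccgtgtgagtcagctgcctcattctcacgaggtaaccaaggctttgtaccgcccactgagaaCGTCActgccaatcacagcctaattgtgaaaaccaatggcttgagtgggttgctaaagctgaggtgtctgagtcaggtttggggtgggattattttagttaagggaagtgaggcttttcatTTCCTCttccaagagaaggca
The promoter of Cd68 holds 2 matches to the PU.1 core and 1 to the CREB core, and that of Cd55 holds 1 to the CREB core. Those of Cd302 and Mpeg1 hold neither.

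The macrophage and innate receptors made up 22 of the members, with 20 tested, and held both the most negative ratios and some of the most positive. An unadjusted p under 0.05 was found for 8 of the 20 (40.0%, beside 18.6% of all genes), 3 positive and 5 negative. The median was -0.067. Cd302, a C-type lectin of macrophages and dendritic cells, had log2 ratios of -0.384, -0.116 and -0.737 on arrays 4, 5 and 6 and of -0.895, -1.224 and -0.213 on arrays 1, 2 and 3. It was negative on all 6 arrays, with overlapping ranges in the orientations and a limma log2 ratio of -0.595 ± 0.146 (SE; adjusted p 0.0634). Mpeg1, the pore-forming perforin-2 of macrophages, had -0.569 and -0.711 on arrays 5 and 6 and -0.620, -0.909 and 0.012 on arrays 1, 2 and 3. It was negative on 4 of 5 arrays, near 0 on array 3, and had a log2 ratio of -0.573 ± 0.152 (limma, adjusted p 0.0878).

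Cd163, the scavenger receptor for haemoglobin bound to haptoglobin and a marker of resident macrophages, had -0.702, -0.690 and -0.256 on arrays 4, 5 and 6. With the CL-316,243 pool in channel 1 it had -0.226, -0.268 and -0.246 on arrays 1, 2 and 3. All 6 values were negative, those of arrays 1, 2 and 3 lay close together, and the log2 ratio was -0.398 ± 0.105 (limma, adjusted p 0.077). For Cd300lg, a member of the Cd300 family made by endothelium, the values were -0.206, 0.022 and 0.018 on arrays 4, 5 and 6 and -0.510, -0.537 and -0.935 on arrays 1, 2 and 3. The orientations did not overlap, the negative values coming mainly from arrays 1, 2 and 3, and the log2 ratio was -0.358 ± 0.106 (limma, adjusted p 0.108). Cd200, a surface ligand that restrains macrophages through its receptor, was the other member of this role with a negative ratio and an unadjusted p under 0.05 (-0.326 ± 0.121, adjusted p 0.198 in limma).

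On the positive side, Cd14, the co-receptor that hands lipopolysaccharide to Tlr4, had 0.151, 0.369 and 1.350 on arrays 4, 5 and 6 and 0.249 and 0.733 on arrays 1 and 3. It was positive on all 5 arrays, over a wide range, with a log2 ratio of 0.557 ± 0.187 (limma, adjusted p 0.157). Cd33, a sialic acid-binding lectin of myeloid cells, had 0.299, 0.276 and 0.667 on arrays 4, 5 and 6 and -0.087, 0.642 and 0.222 on arrays 1, 2 and 3. Of its 6 values 5 were positive, with a log2 ratio of 0.337 ± 0.122 (limma, adjusted p 0.180). Cd300c2, an activating receptor of the same family as Cd300lg, had 0.237 and 0.725 on arrays 5 and 6 and -0.081, 0.174 and 0.359 on arrays 1, 2 and 3. It was positive on 4 of 5 arrays (log2 ratio 0.316 ± 0.132, adjusted p 0.244 in limma).

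The genes most used to count fat macrophages were near 0. Adgre1, which encodes the surface antigen most used to stain mouse macrophages, had 0.032 and 0.044 on arrays 5 and 6 and 0.209 and -0.054 on arrays 1 and 3, and its log2 ratio was 0.058 ± 0.133 with a 95% interval of -0.251 to 0.366. Cd68, a glycoprotein of macrophage lysosomes, had 0.104, 0.521 and -0.292 on arrays 4, 5 and 6 and -0.468, -0.690 and 0.056 on arrays 1, 2 and 3. Positive and negative values were equal in number, and the log2 ratio was -0.128 ± 0.140 (95% interval -0.442 to 0.185). Cd36, the fatty acid transporter of fat cells, macrophages and endothelium, was not tested, since only arrays 4, 5 and 6 had a value (0.518, 0.106 and -0.228). Cd209e, a lectin of the DC-SIGN family, was not tested either. The other 10 genes of this role, Cd180, Cd200r1, Cd200r3, Cd207, Cd209a, Cd209b, Cd209c, Cd209d, Cd300ld and Cd93, lay between -0.235 and 0.168, and none had an unadjusted p under 0.05.

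**Figure D2:**
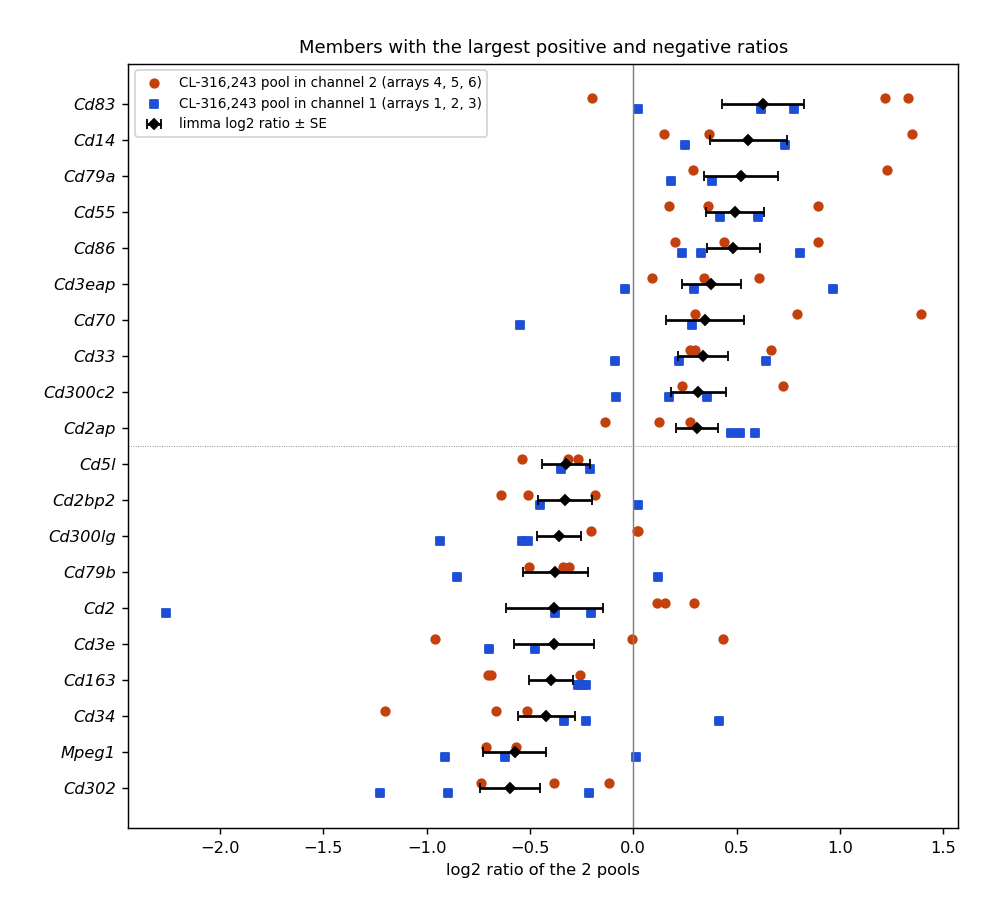
The 10 tested members with the most positive and the 10 with the most negative limma log2 ratio (x axis, log2 ratio of the 2 pools; diamonds with bars are the ratio ± SE). Circles are arrays with the CL-316,243 pool in channel 2 and squares arrays with it in channel 1; Cd86 and Cd302 keep 1 sign on all 6 arrays, while Cd2 is positive on every circle and negative on every square.

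Other genes of macrophages were read beside the members from a list chosen with earlier results of these data known. Of its 29 genes 26 had a probe and 25 were tested. Of these 1 passed, beside 3.16% of all genes. At an unadjusted p under 0.05 in limma 9 had a negative and 1 a positive ratio (40.0%). The share of all genes was 18.6%, with 1235 negative and 1130 positive of 12698. The median was -0.150, beside -0.012 for all genes. These shares were not tested. The gene that passed was Marco, a scavenger receptor of tissue macrophages, with -0.917, -0.872 and -0.729 on arrays 4, 5 and 6 and -0.647, -0.778 and 0.191 on arrays 1, 2 and 3. Its log2 ratio was -0.625 ± 0.136 (limma, adjusted p 0.042). The call was lost when array 1, 2, 4, 5 or 6 was left out (adjusted p 0.156, 0.0858, 0.116, 0.156 and 0.0861) and kept without array 3 (0.00842). It was also lost with a posterior of 0.99 (0.0875), with no dye term (0.0528) and with the CL-316,243 pool in channel 1 only (0.449). Mrc1, the mannose receptor of resident macrophages, had a log2 ratio of -0.695 ± 0.223 (adjusted p 0.142 in limma), negative on 4 of 5 arrays. Tlr4, the receptor that Cd14 serves, was negative on all 6 arrays at -0.306 ± 0.099 (adjusted p 0.136), whereas Cd14 was positive on all of its 5. Of the 25 tested genes 18 had negative and 7 positive ratios (28.0% positive, beside 47.6% of all genes). C1qa was positive (0.162 ± 0.099) at an interval that included 0, while C1qb and C1qc were at -0.453 ± 0.134 and -0.257 ± 0.167. Itgam (0.186 ± 0.115, positive on all 5 arrays with a value) and Itgax (0.125 ± 0.129, positive on all 4) were also among the 7 positive genes. The 1 positive ratio at an unadjusted p under 0.05 in limma was that of Lpl, 0.874, the highest of the list. Its values were 0.158, 0.275 and 0.815 on arrays 4, 5 and 6 and 0.372 and 2.293 on arrays 1 and 3. Fat cells also make Lpl in quantity, and the cell type behind its ratio was not tested, as for every gene of the list.

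**Figure D3:**
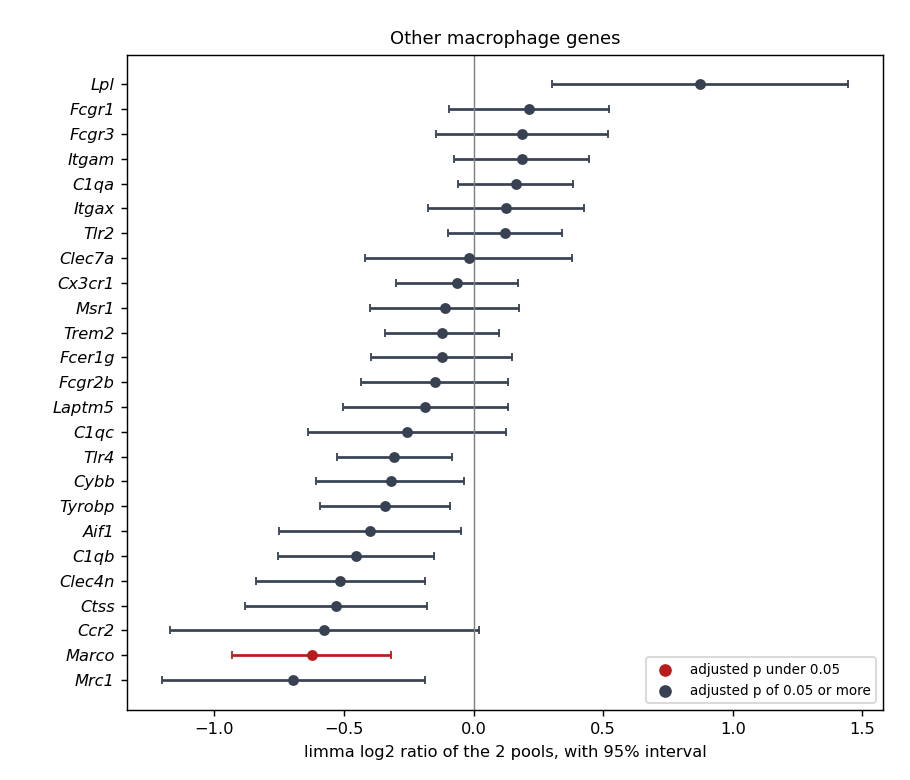
Limma log2 ratios of the 25 tested genes of the macrophage list that are no members (x axis, log2 ratio of the 2 pools with its 95% interval; red, adjusted p under 0.05). Most points lie left of 0, and Marco alone has an adjusted p under 0.05.

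Genes of T and natural killer cells numbered 21, of which 18 were tested. Their ratios lay between -0.382 and 0.260 with a median of -0.095. An unadjusted p under 0.05 was found for 1 of 18 (5.56%, beside 18.6% of all genes). Cd3e, a chain of the T cell receptor complex, had -0.958, -0.005 and 0.436 on arrays 4, 5 and 6 and -0.700 and -0.477 on arrays 1 and 3. The 3 arrays of 1 orientation thus spanned both signs, and the log2 ratio was -0.382 ± 0.193 (limma, adjusted p 0.341). Its partner chains did not lie on 1 side: Cd3d had -0.261 ± 0.130, Cd247 -0.163 ± 0.146 and Cd3g 0.158 ± 0.151.

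Cd4, the co-receptor of helper T cells, had -0.016, 0.072 and -0.208 on arrays 4, 5 and 6 and -0.114 and 0.060 on arrays 1 and 3, and a log2 ratio of -0.039 ± 0.116. Cd8a, a chain of the co-receptor of cytotoxic T cells, had -0.111 and 0.408 on arrays 5 and 6 and 0.156 and 0.584 on arrays 1 and 3, and a log2 ratio of 0.260 ± 0.155 (limma, adjusted p 0.431). The partner of Cd8a, Cd8b1, was at 0.054 ± 0.139. The probes of Cd3g and Cd8a lie 2 spots apart on the slide. Adjacent spots share part of their values, so these probes may not be independent, and sharing at 2 spots was not tested.

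Cd2, an adhesion receptor of T and natural killer cells, had 0.293, 0.114 and 0.153 on arrays 4, 5 and 6 and -0.379, -2.260 and -0.205 on arrays 1, 2 and 3. The signs opposed each other by orientation, and the log2 ratio of -0.381 ± 0.233 rested on array 2, without which it was -0.053. The 1 gene with an unadjusted p under 0.05 was Cd5l, placed here by its symbol although it encodes a protein secreted by macrophages. It had -0.267, -0.316 and -0.538 on arrays 4, 5 and 6 and -0.347 and -0.211 on arrays 1 and 3, all negative (log2 ratio -0.326 ± 0.115, adjusted p 0.179 in limma).

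Cd27, Cd5 and Cd52 were not tested. Cd52, a small glycoprotein of lymphocytes and other leukocytes, had 0.446, 1.165 and 1.679 on arrays 4, 5 and 6 and 1.385 on array 1, the only one with a value in that orientation. All 4 values were positive, and with genes on 3 or more arrays admitted, a rule added after seeing the data, Cd52 was the 1 of 79 members that passed, beside 3.03% of all genes (log2 ratio 1.241, adjusted p 0.0389 in limma). Its neighbour 1 spot away on the slide, Cd44, the receptor for hyaluronan, was positive on the same 4 arrays, with 0.295, 0.614 and 0.915 on arrays 4, 5 and 6 and 0.302 on array 1. The part that a shared slide position has in both was not tested. The other members of this role were Cd244a, Cd28, Cd48, Cd6, Cd69, Cd7, Cd84, Cd96 and Cd160. Of 13 tested genes in a second list for T and natural killer cells (Zap70 and others) none had an adjusted or an unadjusted p under 0.05 in limma. The shares of all genes were 3.16% and 18.6%. The median of that list was 0.028.

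Genes of B cells and antigen presentation numbered 16 and all were tested. Of these 5 (31.25%, beside 18.6% of all genes) had an unadjusted p under 0.05, 3 positive and 2 negative. The median was 0.064. The ligands Cd86 and Cd80, which costimulate T cells, both had positive ratios. Cd86, a ligand of Cd28 on antigen-presenting cells, had 0.895, 0.440 and 0.204 on arrays 4, 5 and 6 and 0.809, 0.235 and 0.328 on arrays 1, 2 and 3. All 6 values were positive and the orientations overlapped nearly in full, with a log2 ratio of 0.485 ± 0.127 (limma, adjusted p 0.0772). Cd80, the related ligand, was at 0.272 ± 0.133 (adjusted p 0.316), positive on 4 of 6 arrays.

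Cd83, a marker of mature dendritic cells, had the highest ratio of the 75: its values were 1.328, 1.220 and -0.197 on arrays 4, 5 and 6 and 0.620, 0.778 and 0.022 on arrays 1, 2 and 3. Of the 6 arrays 5 were positive and array 6 was negative, with a log2 ratio of 0.629 ± 0.199 (limma, adjusted p 0.128) and a 95% interval of 0.183 to 1.074. Cd70, the ligand of Cd27, had 1.391, 0.795 and 0.299 on arrays 4, 5 and 6 and -0.547 and 0.283 on arrays 1 and 3. Its log2 ratio was 0.348 ± 0.187 (adjusted p 0.372), with the higher values all in 1 orientation.

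The 2 signalling chains of the B cell receptor had ratios of opposite sign. Cd79a had 1.228 and 0.290 on arrays 5 and 6 and 0.185 and 0.383 on arrays 1 and 3, with a log2 ratio of 0.522 ± 0.178 (limma, adjusted p 0.175). Cd79b had -0.502, -0.342 and -0.311 on arrays 4, 5 and 6 and -0.853 and 0.119 on arrays 1 and 3, with a log2 ratio of -0.376 ± 0.155 (limma, adjusted p 0.241). Neither passed, and a difference between them was not tested. Cd72, a B cell receptor that dampens signalling, was negative on all 6 arrays at -0.317 ± 0.125 (adjusted p 0.215). Jchain, which joins secreted antibodies in plasma cells and is no member, was at -1.304 ± 0.301 (limma, adjusted p 0.0606), negative on all 5 arrays. The remaining genes of this role, Cd1d1, Cd1d2, Cd22, Cd274, Cd276, Cd37, Cd40, Cd40lg and Cd74, had unadjusted p-values of 0.05 or more.

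Tetraspanins, membrane proteins that gather other receptors into domains, had ratios between -0.182 and 0.253 in the 6 genes placed in this role. Cd37, also a tetraspanin, was counted with the B cell genes (0.123 ± 0.140). None of the 6 had an unadjusted p under 0.05, beside 18.6% of all genes. In 3 of them, Cd151, Cd63 and Cd81, the mean ratios of the orientations had opposite signs and lay more than 1 log2 unit apart. Cd151, a partner of laminin-binding integrins, had 0.481, 0.295 and 0.773 on arrays 4, 5 and 6 and -0.547, -1.003 and -0.474 on arrays 1, 2 and 3. Its log2 ratio over both was -0.079 ± 0.116, and the difference between the orientations was 1.191 (dye term adjusted p 0.402 in limma). With Cd2, Cd69 and Cd81 it was 1 of 4 members with opposite signs in the orientations on every array, beside 6.99% of all genes. Cd81, a tetraspanin present on most cells, did the reverse, with -0.918, -0.783 and -0.015 on arrays 4, 5 and 6 and 0.343 and 0.579 on arrays 1 and 3. Cd63, a tetraspanin of lysosomes, had a mean of -0.258 with the CL-316,243 pool in channel 2 and of 0.764 with it in channel 1. Cd53, Cd82 and Cd9 lay between -0.182 and -0.008. Over all members the dye term had an unadjusted p under 0.05 for 14 of 75, beside 10.6% of genes, and an adjusted p under 0.05 for 0, beside 0.00788%.

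**Figure D4:**
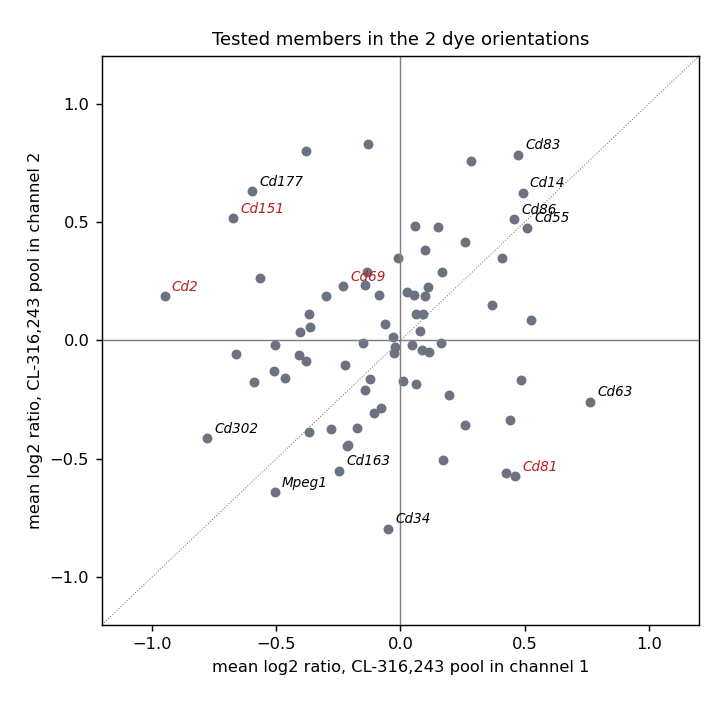
Mean log2 ratio of the 75 tested members on arrays with the CL-316,243 pool in channel 2 (y axis) and in channel 1 (x axis); on the dotted line both are equal, and red names had opposite signs in the orientations on every array. Cd86, Cd55, Cd83 and Cd14 lie at the upper right and Cd302, Mpeg1 and Cd163 at the lower left, while Cd151 and Cd81 lie in the quadrants of opposite sign.

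Adhesion molecules and regulators of complement numbered 13, with 12 tested. Of the 12 tested, 3 had an unadjusted p under 0.05, 1 positive and 2 negative, beside 18.6% of all genes. The median was -0.015. Ptprc, the Cd45 phosphatase carried by all leukocytes, had 0.608, 0.386 and 0.152 on arrays 4, 5 and 6 and -0.083, 0.316 and 0.068 on arrays 1, 2 and 3. It was positive on 5 of 6 arrays, with a log2 ratio of 0.241 ± 0.109 (limma, adjusted p 0.275) and a 95% interval of -0.003 to 0.485. Cd34, a sialomucin of endothelium and of the stromal progenitors of fat, had -1.203, -0.513 and -0.665 on arrays 4, 5 and 6 and -0.334, -0.226 and 0.414 on arrays 1, 2 and 3. It was negative on 5 of 6 arrays, further from 0 with the CL-316,243 pool in channel 2, and had a log2 ratio of -0.421 ± 0.138 (limma, adjusted p 0.140).

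Of the complement regulators, Cd55, which speeds the decay of convertases, had 0.360, 0.894 and 0.173 on arrays 4, 5 and 6 and 0.602 and 0.418 on arrays 1 and 3. All 5 values were positive and the orientations overlapped, with a log2 ratio of 0.493 ± 0.139 (limma, adjusted p 0.103). The neighbouring paralog Cd55b had 0.170 ± 0.149, and the 2 genes are alike enough that their probes could share signal. Cd59a, which blocks the membrane attack complex, was negative on all 5 arrays at -0.272 ± 0.116 (adjusted p 0.254), and Cd46 was at -0.061 ± 0.154. Cd47, the signal that keeps macrophages from engulfing a cell, had a log2 ratio of 0.025 ± 0.109 as the mean of 3 probes that disagreed. On array 4 these had -0.79, 0.59 and 0.78 and on array 6 they had 0.14, 0.03 and -1.12, so the value near 0 averages opposed probes. The neutrophil antigen Cd177 had a ratio of 0.017 ± 0.192 with means of 0.630 over arrays 4, 5 and 6 and -0.596 over arrays 1, 2 and 3, and its neighbour 1 spot away, Cd160, showed the same split with 0.262 and -0.563. The other tested members of this role were Cd164, Cd164l2, Cd24a and Cd248, none with an unadjusted p under 0.05, and Cd44 was not tested.

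The symbol rule also took in 3 proteins that are not surface antigens and are named for a partner. Cd2ap, an adaptor of the actin skeleton that binds the tail of Cd2, had -0.135, 0.273 and 0.123 on arrays 4, 5 and 6 and 0.588, 0.515 and 0.475 on arrays 1, 2 and 3. Its log2 ratio was 0.307 ± 0.101 (limma, adjusted p 0.144), with every value of arrays 1, 2 and 3 above those of arrays 4, 5 and 6. Cd3eap, a subunit of RNA polymerase I, had 0.342, 0.610 and 0.090 on arrays 4, 5 and 6 and -0.040, 0.969 and 0.296 on arrays 1, 2 and 3 (log2 ratio 0.378 ± 0.142, adjusted p 0.196 in limma). Cd2bp2, a splicing protein that binds Cd2, had -0.640, -0.183 and -0.510 on arrays 4, 5 and 6 and 0.023 and -0.449 on arrays 1 and 3 (log2 ratio -0.329 ± 0.132, adjusted p 0.231 in limma). All 3 had an unadjusted p under 0.05 and none an adjusted one, beside 18.6% and 3.16% of all genes.

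Across the roles, 13 of 75 members (17.33%) had the same sign on every array with a value, beside 13.8% of all genes. The 6 positive ones were Cd86, Cd55, Cd14, Cd79a, Cd24a and Cd244a, and the 7 negative ones were Cd302, Cd163, Cd72, Cd48, Cd5l, Cd59a and Cd53. The calls of members came and went with single choices of processing. Subtracting a local trend on the slide, an alternative chosen after the data were seen, called 4 (Cd14, Cd302, Cd55 and Mpeg1), beside 4.63% of all genes in the same fit. Leaving out array 3 called Cd302 and Mpeg1 (adjusted p 0.0224 and 0.0325), beside 2.95% of all genes. Leaving out array 6 called Cd83 (adjusted p 0.0201), beside 2.41%, and 0 members were called without array 1, 2, 4 or 5. Mpeg1 was called with positions of posterior 0.80 or more (adjusted p 0.046), beside 3.24%, and Cd302 among genes with values on all 6 arrays (adjusted p 0.0477), beside 4.55%.

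**Figure D5:**
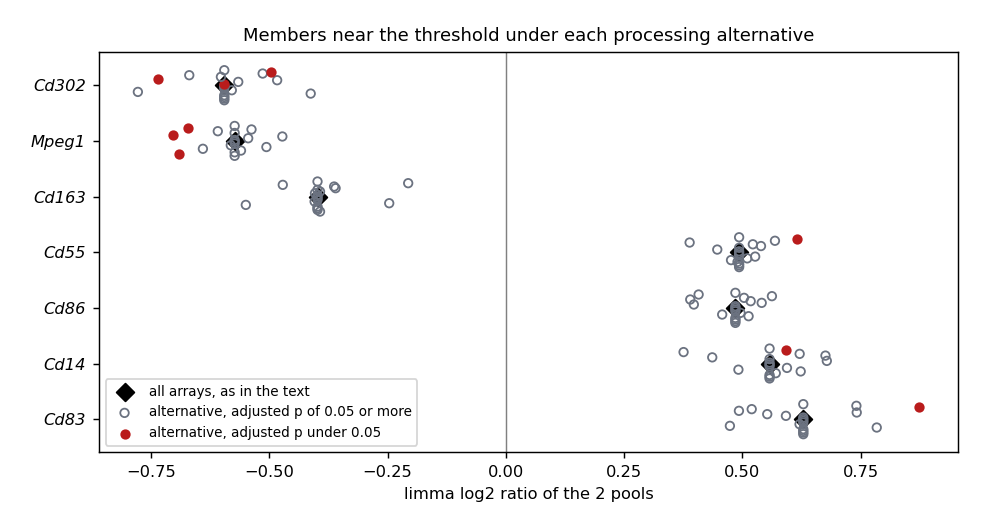
Limma log2 ratios of 7 members with low adjusted p-values, picked after their values were seen, in the fit described in the text (black diamonds) and under each alternative other than the table as deposited and the fit on probes (circles; red, adjusted p under 0.05; x axis, log2 ratio of the 2 pools). Every point keeps its gene's side of 0, and few are red. The 7 are not those with the lowest values: Cd300lg, Cd34 and Cd2ap (limma adjusted p 0.108, 0.140 and 0.144) lay below Cd14 (0.157) and are not shown. Under the same alternatives their ratios came as near to 0 as -0.055, -0.049 and 0.087.

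Markers of other cells in the tissue gave no called gene in the lists for T and natural killer cells, B and plasma cells, neutrophils, mast cells, endothelium, stroma and mesothelium, fat cells and red cells (limma, adjusted p under 0.05; 0 of 13, 0 of 8, 0 of 9, 0 of 6, 0 of 8, 0 of 7, 0 of 7 and 0 of 2 tested). The share of all genes called was 3.16%, and these lists are too short for 0 calls to be told from it. Under the alternatives that place the columns, Jchain was called in 6 settings, Pparg in 3, Tek in 2, and Cidec, Retn and Mpo in 1 each. At an unadjusted p under 0.05 in limma the lists held 0, 1, 2, 0, 1, 0, 3 and 1, beside 18.6% of all genes. The 3 of the fat cell list did not share a sign, with Cidec at 1.172, Adipoq at 0.397 and Pparg at -0.681. Cidec had 3.167 on array 3 and 0.075 to 0.944 on the other arrays with a value. Pparg had -1.796 on array 2 and -0.592 to -0.335 on the others. The medians of the lists were 0.028, -0.083, 0.147, -0.031, -0.072, 0.137, 0.204 and 0.179, beside -0.012 for all genes tested. Spotted ratios give no level of a transcript, so whether a cell type's markers were present at all could not be read from these data.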

How the data were processed

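The deposited values, log ratios of the 2 channels read here as log2, had been scaled by 1 factor per dye pair and smoothed by LOWESS with in-house software, per the labels' protocols. RNA was labelled with fluorescein or biotin, detected by tyramide signal amplification, scanned on a ScanArray 5000 and quantified with QuantArray 3.0, per the labels. The sources used here give neither the numerator nor the log base (it could be natural), nor how background and dropped spots were handled. Without intensities the signal behind a ratio is unknown, and the number of arrays limits the precision.

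Columns were empty only at their ends (1 to 169 rows with the CL-316,243 pool in channel 2, 29 to 724 with it in channel 1), and rows did not correspond between arrays: rank correlations averaged 0.004 within and -0.002 across orientations as deposited. The columns were laid on the 19200 probe numbers by a hidden Markov model that can only lose spots, scored by agreement with the other arrays and by likeness of neighbouring spots within slide rows of 20; positions with a posterior of at least 0.95 were kept. Placement by agreement alone had come first and was replaced when same-gene probes matched best 1 row off, so the correlation of 0.122 over 1187 same-gene pairs (-0.068 to 0.062 at 20 shifted numberings) is no independent check. Placement raises agreement between arrays. A placement without weight for member probes gave the same member values in 100% of kept cases. The spots around them kept their weight, so this cannot show that the members' values are free of that effect.

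The platform annotation gave the names of 14717 probes, 14711 with 1 symbol, 6 with several and 4483 unnamed here; 14416 matched current Entrez records and 0 symbols changed. A gene is the mean of its probes, and 3 members had several. Genes with values on 2 or more arrays per orientation were fitted with limma 3.58.1 (R 4.3.3; dye orientation coded plus and minus 1), with Benjamini-Hochberg adjustment over all genes tested at 0.05. The 6 arrays count as 1 biological replicate. Named are the 10 most positive and 10 most negative tested members and fixed leukocyte markers; Marco, Il6, Jchain, Cd52 and other members named with a value were chosen after their values were seen. Members and lists were chosen with earlier results of these data known. Alternatives were settings of the placement, dye term, scaling, probe and array rules and leaving out each array; 2 were added after seeing the data, and the form of the placement itself was also chosen then.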

Additional observations from a re-analysis of the deposited data

Results flagged for a closer look

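In 4 members every array of 1 orientation was positive and every array of the other negative, beside 6.99% of all genes tested. The mean log2 ratio with the CL-316,243 pool in channel 2 minus that with it in channel 1 was 1.191 for Cd151, 1.135 for Cd2, 0.458 for Cd69, an early activation antigen of lymphocytes, and -1.033 for Cd81. The dye terms of these genes had unadjusted p-values of 0.000522, 0.0361, 0.0489 and 0.00969 in limma, and adjusted p-values of 0.402, 0.453, 0.465 and 0.402. Their ratios over both orientations therefore average opposed values, and the cause was not tested.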

How the results depend on the processing

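The count of members past the threshold was 0 in the fit reported and stayed 0 with rows as deposited, a posterior of 0.99, members without weight in the placement, no dye term, either orientation alone, scaled arrays, clipping at 2, 1 probe per gene, robust eBayes and a fit on probes. It was 1 with a posterior of 0.80 (Mpeg1), 1 with values on all 6 arrays (Cd302, of 42 tested), 1 with 3 or more arrays (Cd52, of 79) and 4 with the local trend removed (the last 2 chosen after seeing the data). Leaving out 1 array gave 0 to 2: Cd302 and Mpeg1 without array 3 and Cd83 without array 6. For these fits and those of 1 orientation the columns were not placed again. The arrays left out thus still had a part in the placement of the others. The median ratio of the members lay between -0.070 and 0.006 when 1 array was left out. The count of all genes, 401, was 0 with rows as deposited, 227 and 93 with the CL-316,243 pool in channel 2 only and in channel 1 only, 719 of 18339 probes in the fit on probes, and 114 to 374 without 1 array (146, 204 and 114 without array 1, 4 and 5).

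Of 566 values of single genes under alternatives 35 changed sign, 15 of them with rows as deposited, where rows do not correspond: Cd14 -0.047, Cd163 0.062, Cd300c2 -0.024, Cd3e 0.104, Cd3eap -0.215, Cd4 0.099, Cd55 -0.229, Cd5l 0.021, Cd68 0.237, Cd79b 0.360, Cd81 0.544, Cd83 -0.032, Cd86 -0.083, Cd8a -0.177 and Ptprc -0.623. The others were in genes near 0 or split by orientation. With the CL-316,243 pool in channel 2 only, Cd151 was 0.516, Cd2 0.187, Cd68 0.111 and Cd69 0.228; with it in channel 1 only, Cd70 was -0.132 and Cd81 0.461. With arrays scaled to one spread Cd69 was 0.016. With the local trend removed Adgre1 was -0.125, Cd151 0.071, Cd4 0.00071 and Cd69 0.116. Without array 1, Adgre1 was -0.0081, Cd4 0.0047 and Cd81 0.0033; without array 2, Cd151 was 0.0029 and Cd69 0.022; without array 3, Cd69 was 0.0046; without array 4, Cd69 was 0.055 and Cd81 0.031; without array 6, Cd4 was 0.00033. When 1 array was left out, the other ends of the ranges were 0.123 for Adgre1, -0.143 for Cd151, -0.195 for Cd81 and -0.031 for Cd69. Over all alternatives that place the columns, the lowest values were -0.674 for Cd151, -0.572 for Cd81 and -0.230 for Cd69, each in 1 orientation alone. The cause was not tested. With rows as deposited left aside, 21 of the 29 genes kept their sign throughout. Both pools lay on each array, so every log ratio compares them within that array, and no pairing between arrays was used.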
